A study of Mus musculus with 12 samples.

Results

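Keratins are the intermediate filament proteins of epithelial cells, and 42 keratin genes, measured by 50 probes, were examined in C57MG cells, a mouse mammary epithelial line. They were chosen by the gene name printed in the scanner files, Krt followed by a number, among 41174 probes with 22410 gene symbols. Each gene was represented by its brightest probe. A further 4 keratin probes did not match the name as spelled and were not counted; 1 of them, Krt88, was detected. Cells in serum-free medium had been treated for 24 h with 100 ng/ml recombinant human Rspo2, 100 ng/ml recombinant mouse Wnt3a, both proteins, or the carrier protein BSA alone. RNA from 3 monolayers per group was hybridized to 12 single-color arrays of oligonucleotide probes. The cells are 1 established line grown as a monolayer, so the groups are not a model of the layered gland.

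Type I (acidic) and type II (basic) keratins assemble as obligate pairs, and the pairs mark epithelial layers. In the mammary gland, luminal cells make the simple keratins Krt8 with Krt18, together with Krt7 and Krt19, while basal and myoepithelial cells make Krt5 with Krt14, together with Krt17. Other members belong to suprabasal layers of stratified epithelia, to wounded or activated epidermis, or to hair. Wnt3a is a ligand of the β-catenin pathway, and Rspo2 is a secreted protein that strengthens the response to Wnt ligands.

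By the stricter of the scanner software's detection flags, a minority of the 42 keratins was detected in these cells. Detection required the scanner software's flag for a signal well above background, on each of the 3 arrays of some group, and 11 of the 42 keratins met this criterion. With the software's looser flag, for a signal positive and significant against background, 23 did. Under the stricter flag the count was 9 in BSA-treated cells, 7 with Rspo2, 10 with Wnt3a and 11 with both proteins. Of the other keratins, 11 were above background on no array at all. A value printed for a probe that was not detected is neither a measured level nor an upper bound, because the detection level can lie above it. It does not show that the transcript was absent. Fewer cells that make a keratin and less keratin RNA per cell cannot be told apart in RNA from whole monolayers.

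The detected keratins came from every group but the keratins of no assigned group. The simple epithelial group had 2 of 5 members detected (Krt7, Krt8), the basal group 2 of 3 (Krt5, Krt14) and the activation group 2 of 4 (Krt16, Krt17). The group of suprabasal and other stratified keratins had 4 of 11 (Krt10, Krt13, Krt76, Krt80), and the hair and inner root sheath group had 1 of 17 (Krt84). Krt10, Krt13, Krt14, Krt16, Krt17, Krt80 and Krt8 were above background on all 12 arrays. In the simple group Krt20 was not detected, and in the stratified group Krt1, Krt2, Krt4, Krt9, Krt12, Krt23 and Krt78 were not. Of the hair keratins, Krt25, Krt26, Krt27, Krt28, Krt31, Krt32, Krt33a, Krt33b, Krt34, Krt35, Krt36, Krt71, Krt75, Krt82, Krt85 and Krt87 were not detected, nor were Krt222 and Krt42.

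**Figure D1:**
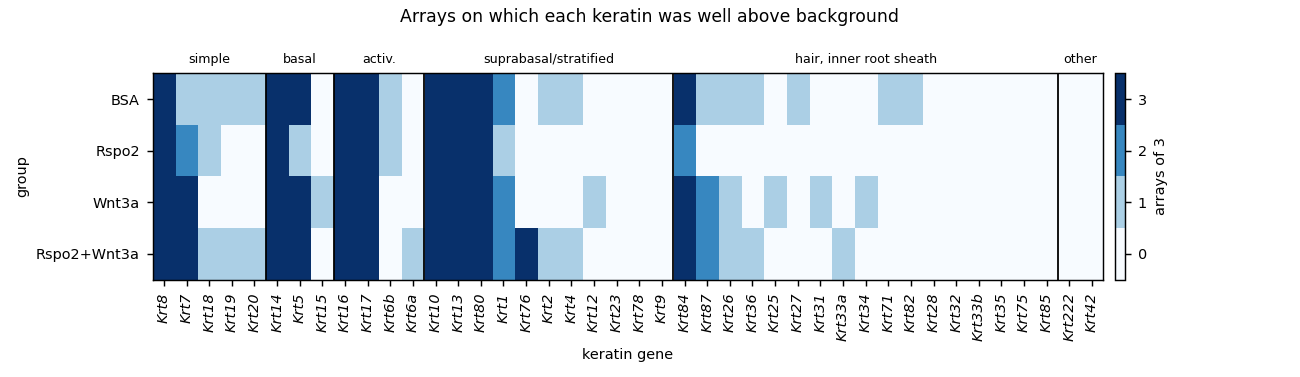
The number of arrays (0 to 3, color) on which each of the 42 keratins was well above background, with genes on the horizontal axis in their groups and the 4 treatment groups on the vertical axis. The dark columns are the 11 detected keratins, and Krt76 is dark in the Rspo2+Wnt3a row alone.

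Detection did not follow the known pairs. Of 7 textbook pairs (Krt5 with Krt14, Krt8 with Krt18, Krt7 with Krt19, Krt4 with Krt13, Krt1 with Krt10, Krt6a with Krt16, Krt6b with Krt17), both partners were detected in 1, the basal pair, and a single partner in 6. The pair count depends on the criterion. The brightest Krt1 probe was above background on 2 BSA, 1 Rspo2, 2 Wnt3a and 2 Rspo2+Wnt3a arrays, so Krt1 would count as detected if 2 of 3 arrays were enough. That rule gave 13 detected keratins. Pairs were not counted under it or under the looser flag. A dimmer Krt1 probe was above background on no array. Only the dimmer one was matched to Krt1 by accession in RefSeq. The share of keratins above background was larger on the arrays BSA 1 (54.8%) and Rspo2+Wnt3a 1 (50%) than on the other 10 arrays (16.7% to 33.3%). The same arrays had the largest shares over all probes, 64.2% and 61.7%, against 51.3% to 58.8% on the others. With both arrays left out, 11 keratins were still detected.

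The RefSeq annotation (GRCm38.p6) placed 24 of the 42 genes in the keratin cluster of chromosome 11 and 17 on chromosome 15, and 1 symbol had no entry in that table. Krt10, Krt13, Krt14, Krt16 and Krt17 lie on chromosome 11, and Krt80, Krt7, Krt84, Krt5, Krt76 and Krt8 lie on chromosome 15. Krt14 (100203162 to 100207510), Krt16 (100246091 to 100248902) and Krt17 (100256215 to 100261029) lie close together on chromosome 11.

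Each comparison was fitted over 22751 detected probes with limma, and a probe was called changed where its change reached 2-fold with a Benjamini-Hochberg adjusted p under 0.05. Neither protein alone changed a keratin by that rule, while both together changed 4 of the 11 against BSA. Krt14, Krt13 and Krt76 were higher and Krt8 was lower. Among all probes the same rule called 5.08% with both proteins, 1.28% as higher and 3.79% as lower. Krt76 entered the fit only through the group in which it was high, so it had to differ there, and Krt7 entered only through the 2 groups in which it was high. Counts over the 11 are therefore a description. The BSA and combined groups shared no slide. With slide as a term, 22 of the 26 keratin changes that passed at adjusted p under 0.05 in the 5 comparisons no longer did, and the other 4 were 3 of Krt76 and the step of Krt16 from Wnt3a to both. At adjusted p alone, 8 of the 11 keratins passed with both proteins, against 39.2% of all probes. The median log2 change of the 11 keratins was 0.22, and that of all probes was 0.04.

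Krt14, the type I keratin of basal cells, rose with Wnt3a and further with both proteins. Its relative signal, the processed intensity as a multiple of its array's 75th percentile, was 9.86, 10.5 and 10.3 in BSA-treated cells and 10.4, 9.48 and 12.1 with Rspo2. It was 16.7, 15.1 and 16.7 with Wnt3a and 25.6, 24.5 and 22.3 with both. The Rspo2 arrays overlapped those of BSA, whereas all Wnt3a arrays lay above both, and all arrays with both proteins lay above Wnt3a. Against BSA, Rspo2 gave a log2 change of 0.06 ± 0.10 (SE; adjusted p = 0.715), Wnt3a gave 0.66 ± 0.10 (adjusted p = 0.00134), and both gave 1.24 ± 0.10 (2.36-fold, adjusted p = 8.28e-06). Adding Rspo2 to Wnt3a raised it by a further 0.58 ± 0.10 (adjusted p = 0.00722), under the 2-fold rule. After adjustment for slide, the change with Wnt3a was 0.60 (adjusted p = 0.225) and the further step 0.53 (adjusted p = 0.183).

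Krt5, the type II partner of Krt14, did not follow it. Its relative signal was 0.0487, 0.0550 and 0.0594 in BSA-treated cells, 0.0382, 0.0319 and 0.0227 with Rspo2, 0.0291, 0.0406 and 0.0412 with Wnt3a, and 0.0590, 0.0620 and 0.0687 with both. Each single treatment lay below BSA on every array, and the groups BSA and both overlapped. With Rspo2 the probe was above background on 1 of 3 arrays. Rspo2 changed it by -0.84 ± 0.19 on the log2 scale (adjusted p = 0.0212) and Wnt3a by -0.57 ± 0.19 (adjusted p = 0.0405). Both together gave 0.22 ± 0.19 (adjusted p = 0.387, 95% interval -0.19 to 0.64). The change with Rspo2 was -1.01 and called without Rspo2 1, and was 0.30 (adjusted p = 0.835) under another background correction, normexp. Changes in Krt5 with a single protein were not stable: that with Wnt3a was -0.16 under quantile scaling (adjusted p = 0.646), -0.15 with slide as a term (adjusted p = 0.867) and -0.55 in the deposited ratio values (adjusted p = 0.0781), and it missed the threshold under 16 of 23 alternatives. The 250 bases before the Krt5 start (chr15:101712906-101713155, minus strand, GRCm38.p6) are shown beside those of the called keratins Krt13, Krt76 and Krt8 because these genes moved in different directions; the listed start of Krt14 lies inside the gene, so its window is not shown. Capitals mark matches on either strand to 5 motifs. The letters searched were TATAAA for the TATA box, CTTTGA for Tcf/Lef sites together with the variant form CTTTGT, and TGANTCA for AP-1. They were GCCNNNGGC for AP-2 and GGGNGNGG for Klf/Sp factors.
Krt5: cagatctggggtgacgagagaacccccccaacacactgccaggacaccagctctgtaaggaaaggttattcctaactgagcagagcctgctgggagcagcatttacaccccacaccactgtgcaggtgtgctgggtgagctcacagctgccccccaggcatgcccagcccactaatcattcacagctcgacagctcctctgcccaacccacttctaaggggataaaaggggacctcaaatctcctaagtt
Krt13: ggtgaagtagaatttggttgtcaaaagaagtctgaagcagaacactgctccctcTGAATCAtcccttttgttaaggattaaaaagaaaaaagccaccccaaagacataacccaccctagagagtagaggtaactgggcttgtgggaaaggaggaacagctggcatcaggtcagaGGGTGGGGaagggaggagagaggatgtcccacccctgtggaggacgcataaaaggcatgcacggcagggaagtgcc
Krt76: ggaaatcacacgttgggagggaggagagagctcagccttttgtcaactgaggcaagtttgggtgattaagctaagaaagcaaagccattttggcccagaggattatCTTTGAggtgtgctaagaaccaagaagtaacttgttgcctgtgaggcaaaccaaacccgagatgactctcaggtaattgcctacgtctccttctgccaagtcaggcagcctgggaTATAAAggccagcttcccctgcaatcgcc
Krt8: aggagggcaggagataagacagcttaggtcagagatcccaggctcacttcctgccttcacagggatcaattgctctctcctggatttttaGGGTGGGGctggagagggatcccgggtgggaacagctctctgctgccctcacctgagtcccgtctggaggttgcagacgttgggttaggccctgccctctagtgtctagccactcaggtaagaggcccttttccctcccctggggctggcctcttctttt

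The windows of Krt13 (chr11:100121567-100121816), Krt76 (chr15:101892921-101893170) and Krt8 (chr15:102004343-102004592) are also on the minus strand and were read from the RefSeq promoter table; Krt13 has 2 listed starts, and the outer one was used. The Krt76 window held 1 TATA box match, 29 bases before the start, and 1 Tcf/Lef match, 144 bases before it. Krt13 held 1 AP-1 match and 1 Klf/Sp match, Krt8 held 1 Klf/Sp match, and Krt5 held none of the motifs. No match overlapped another in these windows, although the AP-2 and Klf/Sp letters can. Of 32817 promoter windows of the same length, 12.4% held the TATA letters, 27.6% the Tcf/Lef letters, 6.75% AP-1, 13.7% AP-2 and 45.9% Klf/Sp. A match describes the letters only, and binding was not measured.

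Krt15, the remaining basal keratin, was above background on 1 of 12 arrays. The 3 BSA arrays gave relative signals of 0.0221, 0.00749 and 0.00686, followed by 0.00902, 0.00615 and 0.00664 with Rspo2, 0.00542, 0.0397 and 0.00524 with Wnt3a, and 0.0137, 0.0177 and 0.00456 with both. The single array above background was Wnt3a 2, so no group had a measured level.

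Krt13, a type I keratin of the suprabasal layers of internal stratified epithelia, rose in the same order as Krt14. Relative signals were 2.31, 2.38 and 2.18 with BSA, 2.48, 2.31 and 2.96 with Rspo2, 3.49, 3.27 and 4.21 with Wnt3a, and 7.01, 6.43 and 5.06 with both. All arrays with both proteins were above all Wnt3a arrays, and these were above BSA. The log2 change from BSA to Rspo2 was 0.17 ± 0.14 (adjusted p = 0.427), that to Wnt3a was 0.67 ± 0.14 (adjusted p = 0.00593), and that to both was 1.42 ± 0.14 (2.67-fold, adjusted p = 4.05e-05). Against Wnt3a alone, both proteins gave 0.75 ± 0.14 (adjusted p = 0.013). After adjustment for slide, the change with Wnt3a (adjusted p = 0.44) and this step (adjusted p = 0.331) did not pass.

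A dimmer probe of Krt13 gave another pattern, with relative signals of 0.144, 0.0946 and 0.0951 for BSA, 0.205, 0.173 and 0.231 for Rspo2, 0.198, 0.193 and 0.217 for Wnt3a, and 0.251, 0.196 and 0.167 for both. All treated arrays were above all BSA arrays. It rose by 0.89 ± 0.19 on the log2 scale with Rspo2, with Wnt3a and with both (adjusted p = 0.0192, 0.00587 and 0.004), and adding Rspo2 to Wnt3a changed it by -0.00 ± 0.19 (adjusted p = 0.997). Both probes were above background on all 12 arrays and were higher than BSA with Wnt3a and with both, but the dimmer one was not called and showed no step from Wnt3a to both. Keratin genes resemble each other in sequence, and whether a probe also bound a related transcript was not tested, since probe sequences were not used here.

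Krt76, a type II keratin of the palate and oral epithelium, was measured only with both proteins. Its relative signal was 0.00488, 0.00755 and 0.00694 with BSA, 0.00943, 0.00655 and 0.00402 with Rspo2, and 0.00562, 0.00560 and 0.00550 with Wnt3a, on none of which it was well above background. With both it was 0.187, 0.144 and 0.122, above background on all 3 arrays. The fit of the measured values gave an adjusted p of 1.17e-06 against BSA and 7.84e-06 against Wnt3a, for a probe that had to differ. Its mean log2 signal with both was also set against the lowest signals that were well above background on the dim arrays. It lay 4.88-fold above these on the BSA arrays, 5.09-fold on the Rspo2 arrays and 6.05-fold on the Wnt3a arrays. Under normexp the log2 change against BSA was 1.26 (adjusted p = 0.401). The 3 folds are not lower bounds, because a probe without the flag can read above the lowest flagged signal. On Rspo2 1, for example, a Krt8 probe without the flag read 0.0521. Among all probes 0.747% were called between both proteins and Wnt3a, and Krt76 was the only keratin among them.

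**Figure D2:**
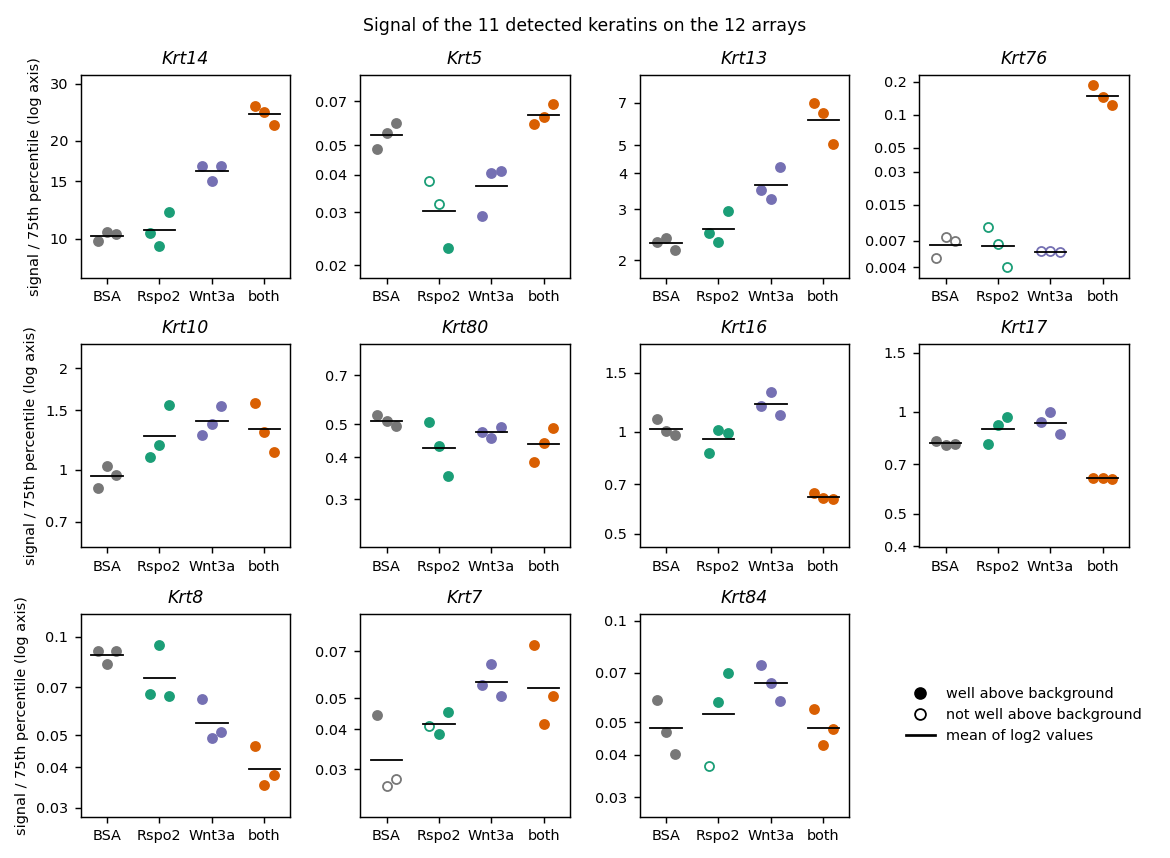
Relative signal (multiples of each array's 75th percentile, log axis) of the 11 detected keratins on each of the 3 arrays of the 4 groups, with filled points well above background, open points not, and a line at the mean of the log2 values. Krt14 and Krt13 step up from BSA to Wnt3a to both, Krt8 steps down, Krt16 and Krt17 are lowest with both, and Krt76 has filled points only with both.

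Krt10, a type I keratin of suprabasal epidermis, was higher than BSA in all 3 treatments. Relative signals were 0.880, 1.02 and 0.967 with BSA, 1.09, 1.18 and 1.55 with Rspo2, 1.27, 1.37 and 1.55 with Wnt3a, and 1.58, 1.29 and 1.13 with both. Rspo2 gave a log2 change of 0.40 ± 0.15 (adjusted p = 0.0947), Wnt3a 0.54 ± 0.15 (adjusted p = 0.0222) and both 0.47 ± 0.15 (adjusted p = 0.0335). All treated arrays were above all BSA arrays, but no change reached 2-fold, and with slide as a term the change with both was -0.081 ± 0.34. A dimmer Krt10 probe was above background on 3 of the 12 arrays and was not detected, so these values rest on the brightest probe alone. Krt80, a type II keratin of many epithelia, had relative signals of 0.352 to 0.531 over the 12 arrays and passed in no comparison.

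The activation keratins Krt16 and Krt17, type I keratins made in wounded or hyperproliferative epidermis, were lower with both proteins than in any other group. Krt16 had relative signals of 1.09, 1.01 and 0.977 with BSA, 0.866, 1.02 and 0.992 with Rspo2, 1.195, 1.31 and 1.12 with Wnt3a, and 0.660, 0.637 and 0.633 with both. Krt17 had 0.820, 0.797 and 0.805 with BSA, 0.803, 0.913 and 0.968 with Rspo2, 0.932, 0.998 and 0.863 with Wnt3a, and 0.637, 0.636 and 0.633 with both. The arrays with both proteins did not overlap those of any other group for either gene.

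Against BSA, both proteins changed Krt16 by -0.67 ± 0.09 (adjusted p = 0.000257) and Krt17 by -0.35 ± 0.08 (adjusted p = 0.00836) on the log2 scale. Against Wnt3a the changes were -0.91 ± 0.09 for Krt16 (adjusted p = 0.000197) and -0.55 ± 0.08 for Krt17 (adjusted p = 0.00422), and with Wnt3a alone neither passed (0.24 ± 0.09, adjusted p = 0.0617, for Krt16 and 0.20 ± 0.08, adjusted p = 0.0893, for Krt17). All were under 2-fold. Within the same stretch of chromosome 11, Krt14 was thus higher with both proteins and its neighbors Krt16 and Krt17 were lower. Adjusted for slide, the falls against BSA did not pass (-0.73, adjusted p = 0.0707, for Krt16 and -0.41, adjusted p = 0.24, for Krt17), nor did that of Krt17 against Wnt3a (adjusted p = 0.0649), while that of Krt16 against Wnt3a did (-0.80, adjusted p = 0.00742). Between both proteins and Wnt3a alone, 6 of the 11 keratins passed at adjusted p alone, against 4.27% of all probes. They did not move together, since Krt5, Krt13, Krt14 and Krt76 were higher while Krt16 and Krt17 were lower. Krt76 had to differ, so this count is a description too. Krt5 missed the threshold under 18 of 23 alternatives and Krt13 under 10 of 24. With slide as a term only Krt16 and Krt76 passed.

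The type II partners Krt6a and Krt6b were not detected. Krt6a had relative signals of 0.0125, 0.00773 and 0.0169 with BSA, 0.00962, 0.00663 and 0.00395 with Rspo2, 0.00506, 0.00567 and 0.00547 with Wnt3a, and 0.00939, 0.00532 and 0.0744 with both, above background on the last array alone. Krt6b had 0.0271, 0.00756 and 0.00689 with BSA, 0.00924, 0.0378 and 0.00399 with Rspo2, 0.00482, 0.00537 and 0.00536 with Wnt3a, and 0.0161, 0.00448 and 0.00457 with both. It was above background on BSA 1 and Rspo2 2.

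Krt8, the type II keratin of simple and luminal epithelium, fell as Krt14 rose. On the BSA arrays the relative signal was 0.0905, 0.0824 and 0.0904, and it was 0.0669, 0.0941 and 0.0658 with Rspo2, 0.0644, 0.0490 and 0.0513 with Wnt3a, and 0.0464, 0.0353 and 0.0378 with both. The Wnt3a arrays lay below all BSA arrays, and the arrays with both proteins lay below all Wnt3a arrays. On the log2 scale Rspo2 gave -0.23 ± 0.16 (adjusted p = 0.323), Wnt3a -0.69 ± 0.16 (adjusted p = 0.00896) and both -1.15 ± 0.16 (2.22-fold lower, adjusted p = 0.000366). The step from Wnt3a to both, -0.46 ± 0.16, did not pass (adjusted p = 0.153). A further probe of Krt8 was also called with both proteins, at -1.04 ± 0.17 (adjusted p = 0.00104). It did not pass with Wnt3a (-0.48, adjusted p = 0.0539), and its arrays of Wnt3a and both overlapped. With both proteins it was well above background on 2 of 3 arrays, and its lowest reading (0.0236, Rspo2+Wnt3a 1) lacked the flag. Both Krt8 probes were near background, which limits the measured size of the fall. For the brightest probe the change with both was -0.95 under quantile scaling, just short of 2-fold, and -0.78 under normexp (adjusted p = 0.454). Adjusted for slide, the change with Wnt3a did not pass (adjusted p = 0.26), and the further probe gave -0.59 with both (adjusted p = 0.448).

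Krt18, the type I partner of Krt8, was above background on 3 of the 12 arrays, BSA 1, Rspo2 3 and Rspo2+Wnt3a 1. Its relative signal was 0.0487, 0.0141 and 0.0221 with BSA, 0.0205, 0.0253 and 0.0258 with Rspo2, 0.0201, 0.00665 and 0.0230 with Wnt3a, and 0.0304, 0.00822 and 0.00513 with both. Krt19, a type I keratin of luminal cells, was above background on BSA 1 and Rspo2+Wnt3a 1. It had 0.0443, 0.0202 and 0.0241 with BSA, 0.0215, 0.00857 and 0.0208 with Rspo2, 0.0104, 0.00753 and 0.0181 with Wnt3a, and 0.0463, 0.0138 and 0.0205 with both. For both genes the readings above background included the arrays with the highest overall shares of probes above background.

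Krt7, a type II keratin of simple and glandular epithelium, was higher with Wnt3a and with both proteins than with BSA, but was detected only in these groups, which favored a rise. Its relative signal was 0.0443, 0.0266 and 0.0279 with BSA, 0.0408, 0.0386 and 0.0454 with Rspo2, 0.0550, 0.0639 and 0.0509 with Wnt3a, and 0.0735, 0.0414 and 0.0509 with both. It was above background on 1, 2, 3 and 3 arrays of those groups, and the group with both overlapped BSA. Rspo2 gave a log2 change of 0.37 ± 0.23 (adjusted p = 0.265), Wnt3a 0.82 ± 0.23 (adjusted p = 0.0196) and both 0.75 ± 0.23 (adjusted p = 0.023), all under 2-fold. A dimmer Krt7 probe passed in no comparison, with 0.36 ± 0.46 for Wnt3a (adjusted p = 0.583) and 0.44 ± 0.46 for the combination (adjusted p = 0.493). Without BSA 1, the only BSA array on which Krt7 was above background, the change with Wnt3a was 1.05 and was called. Under normexp the change with both was -0.14 (adjusted p = 0.91).

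Krt84, a type II hair keratin, had relative signals of 0.0371 to 0.0741 and passed in no comparison (log2 change with both 0.01 ± 0.22, adjusted p = 0.982).

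For the single proteins, limma called 0 of 11 keratins with Rspo2 and 0 of 11 with Wnt3a, against 0.721% and 2.52% of all probes. At adjusted p alone, 1 keratin passed with Rspo2 (Krt5) and 6 with Wnt3a, against 16.8% and 31.5% of all probes. At an unadjusted p under 0.05, the counts were 2 and 8, against 35% and 43% of all probes. The methods' test, with unequal variances and 2-fold required, also called 0 in both comparisons.

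An interaction was fitted too, as the change under the combination minus the summed changes under each single protein. It was called for 2 keratins, against 1.93% of all probes. It was 1.63 ± 0.27 for Krt5 (adjusted p = 0.0075), which fell with each protein and not with both; under normexp it was -0.11 (adjusted p = 0.973). The other was Krt76, below background in 3 of the 4 groups, so that its fitted value is no measured size and its call followed from the way it entered the fit. At adjusted p alone 5 keratins passed, against 8.9% of all probes; the other members were Krt14 with 0.52 ± 0.14 (adjusted p = 0.0439), Krt16 with -0.81 ± 0.12 (adjusted p = 0.00553) and Krt17 with -0.69 ± 0.12 (adjusted p = 0.00991). That of Krt14 missed the threshold on leaving out 10 of the 12 arrays in turn (adjusted p up to 0.103). Krt13 gave 0.58 ± 0.20 (adjusted p = 0.0886) and Krt8 gave -0.23 ± 0.23 (adjusted p = 0.532).

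**Figure D3:**
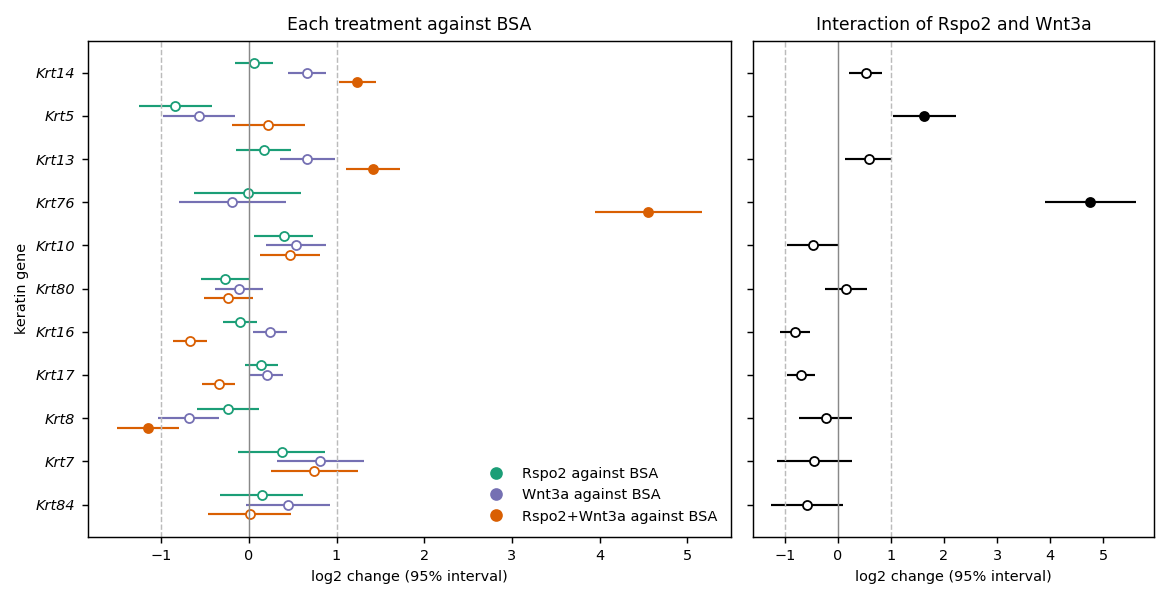
Log2 changes of the 11 detected keratins with their 95% intervals, for each treatment against BSA (left) and for the interaction (right), with filled points called at adjusted p under 0.05 and at least 2-fold, and dashed lines at 2-fold. Filled points against BSA are all of Rspo2+Wnt3a (Krt14, Krt13, Krt76 and Krt8), and the interaction is filled for Krt5 and Krt76; the Krt76 points rest on groups below background.

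Slide moved with treatment, since the BSA arrays were on slide 1 with Rspo2 1. Slide 2 held Rspo2 2, Rspo2 3, Wnt3a 1 and Wnt3a 2, and Wnt3a 3 was on slide 3 with the arrays of both proteins. With slide as a term, the changes with both against BSA were 1.13 ± 0.24 for Krt14 (adjusted p = 0.0518), 1.02 ± 0.32 for Krt13 (adjusted p = 0.157) and -1.25 ± 0.38 for Krt8 (adjusted p = 0.151), so none of these 3 was still called. Krt76 was, as a probe that had to differ. Over all probes the calls with both against BSA fell from 1155 to 500 with slide as a term. The Krt5 interaction was then 1.12 ± 0.32 (adjusted p = 0.176). Within slide 3, both proteins less the single Wnt3a array gave 0.53 for Krt14, 0.54 for Krt13, -0.38 for Krt8, -0.80 for Krt16 and -0.44 for Krt17. Within slide 2, Wnt3a less Rspo2 gave 0.57 for Krt14 and -0.49 for Krt8, and no slide held BSA with Wnt3a or with both.

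The partners of keratins were examined as a list of 24 genes of desmosomes, hemidesmosomes and linkers. Of these 14 were detected, and 6 were above background on no array, among them the desmosomal linker Dsp and the desmosomal cadherins Dsc2, Dsc3, Dsg1a and Dsg3. With both proteins 0 were called higher and 1 was called lower, the desmosomal plaque gene Pkp3, at -1.01 ± 0.20 (adjusted p = 0.00293), where 3.79% of all probes were called lower. At adjusted p alone 7 of the 14 passed, near the 39.2% of all probes, and the list median was -0.18 against 0.04 for all probes. Itgb4, the hemidesmosomal integrin subunit, gave -0.64 ± 0.12 (adjusted p = 0.0021). No partner was called with a single protein or in the interaction.

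Of 16 other intermediate filament genes, 8 were detected and none was called in any of the 5 comparisons by limma, with a median of 0.15 with both proteins. At adjusted p alone 0 passed with Rspo2 (16.8% of all probes), 3 with Wnt3a (31.5%) and 1 with both (39.2%), and 0 in the other 2 comparisons (4.27% and 8.9%). Vim, the mesenchymal filament vimentin, gave 0.17 with both (adjusted p = 0.127).

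Of 28 regulators on the arrays known to act on keratin genes or epithelial identity, transcription factors apart from the splicing regulators Esrp1 and Esrp2, 12 were detected and 12 were above background on no array. Klf5, a factor of basal epithelial cells, was the only one called, with a log2 change of 1.16 ± 0.13 for Wnt3a (adjusted p = 0.000258) and 2.34 ± 0.13 for the combination (adjusted p = 5.67e-07). Among all probes 2.52% were called with Wnt3a and 5.08% with both. Trp63, which encodes the p63 factor of basal cells, was detected in all groups and gave -0.40 ± 0.11 with both (adjusted p = 0.0143), below 2-fold. Cebpb and Zeb2, named here after their values were seen, gave -0.86 ± 0.12 (adjusted p = 0.000412) and 0.75 ± 0.08 (adjusted p = 8.03e-05). At adjusted p alone 6 of the 12 passed with both, in either direction, against 39.2% of all probes.

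**Figure D4:**
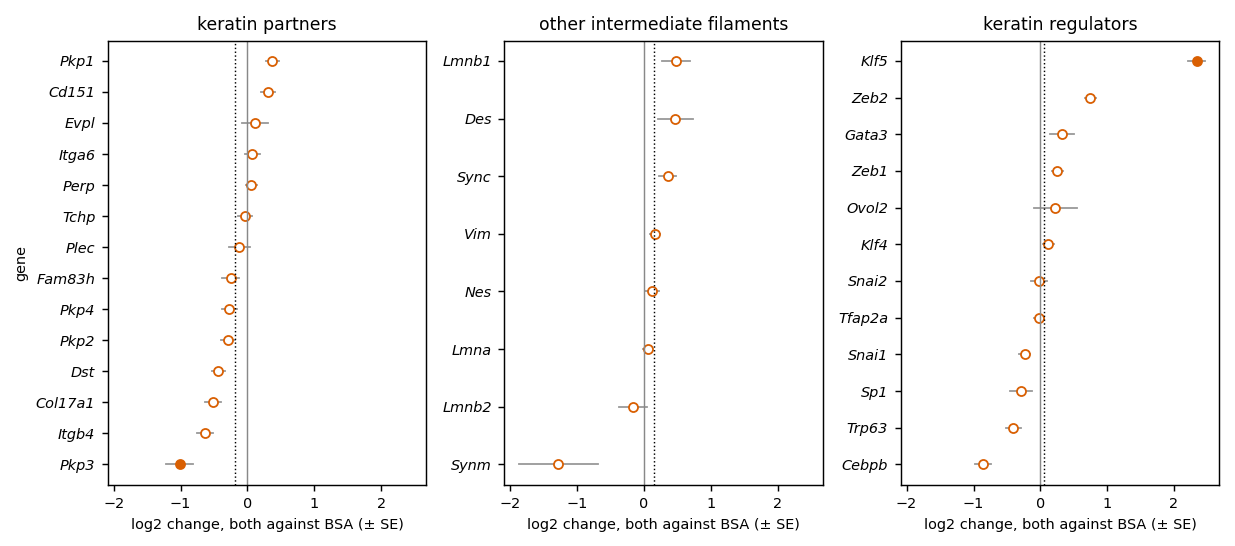
Log2 change with both proteins against BSA (± SE) for the detected members of 3 lists: 14 keratin partners, 8 other intermediate filament genes and 12 regulators, with filled points called and a dotted line at the list median. Pkp3 and Klf5 are the filled points, and the medians lie at -0.18, 0.15 and 0.05.

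Markers of the lineages were set beside the keratins. Of 22 luminal markers 7 were detected (Krt7, Krt8, Cldn3, Esr1, Prlr, Gata3 and Cited1), and Esr1, Gata3 and Cited1 were above background on every array. On no array were 7 others above background, including Cdh1, and Epcam was above it on 2 arrays. With both proteins 0 luminal markers were called higher and 1 lower (Krt8), against 1.28% and 3.79% of all probes. Krt7 was higher at adjusted p alone (0.75, adjusted p = 0.023). The luminal list median was -0.09 with Rspo2, 0.14 with Wnt3a and 0.08 with both. Of 16 basal or myoepithelial markers 9 were detected and 1 (Krt14) was called higher with both, against 1.28% of all probes. The myoepithelial genes Tagln and Acta2 gave 0.95 (adjusted p = 6.24e-05) and 0.78 (adjusted p = 7.26e-05). Other members of the basal list were lower, namely Itgb4 (-0.64, adjusted p = 0.0021), Trp63 (-0.40, adjusted p = 0.0143) and Krt17 (-0.35, adjusted p = 0.00836), and the list median was 0.06 with Rspo2, 0.05 with Wnt3a and 0.07 with both. Of 17 mesenchymal markers 15 were detected, so this line, labelled epithelial, had mesenchymal transcripts while Cdh1 was not above background. Each of the luminal and basal lists includes 4 keratins, and a summed signal is carried by its brightest probes. On the basal list Krt15, Myh11, Cnn1, Oxtr, Cdh3, Lgr5 and Procr were not detected. Summed over the basal list, relative signals ranged from 138 to 146 on BSA arrays, 175 to 198 on Rspo2 arrays, 191 to 211 on Wnt3a arrays and 226 to 264 on arrays of both. Krt5, Krt14 and Krt15 together gave only 9.93 to 10.5, 9.52 to 12.1, 15.2 to 16.8 and 22.4 to 25.6 of these sums. In the same order of groups, the luminal list gave 3.33 to 4.33, 3.88 to 4.68, 4.17 to 5.40 and 3.44 to 4.96, and the mesenchymal list gave 586 to 595, 595 to 681, 631 to 689 and 612 to 635.

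With both proteins 1 mesenchymal marker was called higher (Twist1, 1.02 ± 0.11, adjusted p = 6.62e-05) and 1 lower (Pdgfra, -1.37 ± 0.11, adjusted p = 8.77e-06). Among all probes 1.28% were called higher and 3.79% lower. At adjusted p alone 8 of the 15 detected mesenchymal markers passed with both, against 39.2% of all probes. Among haematopoietic markers 3 of 5 were detected, but Ptprc and Itgam were not, and the summed signal was 0.366 to 0.474 over all arrays. Cd3e was called lower with Wnt3a (-1.01 ± 0.33, adjusted p = 0.0397), where 2.52% of all probes were called. Of 4 endothelial markers only Cdh5 was detected, at -0.55 with both (adjusted p = 0.000259), and of 4 adipocyte markers only Fabp4, at -0.81 with both (adjusted p = 0.000822) and -1.28 ± 0.18 in the interaction (called, adjusted p = 0.00387). In the interaction 1.93% of all probes were called. The part of these markers in the keratin results was not tested.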

How the data were processed

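RNA from 12 monolayers of C57MG cells was measured on 3 slides of 4 single-color arrays each. The intensity values were made by the authors with Agilent Feature Extraction 9.5.3.1, which subtracted background; they were not scaled between arrays. The other deposited file holds ratio values, each signal over its array's 75th percentile. It served as an alternative.

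Of 520548 spot values, 1327 flagged as uneven or outliers were left out, and no keratin spot was saturated. Spots of a probe were averaged, scaled to that percentile and converted to log2. Detection required the flag on all arrays of a group with values (at least 2 arrays). The 3 replicates per group were separate monolayers of 1 line, and the number of arrays and the signal over background limit the precision. The comparisons used R 4.3.3 with limma 3.58.1, and version 1.17.8 of data.table, on all 12 arrays, with p-values adjusted over 22751 detected probes; the prior had 2.74 degrees of freedom. An exact permutation test of 3 arrays against 3 cannot pass, so it was not used. The named rule covers every detected keratin, with array values for called and for luminal and basal keratins, and list members that were called (at most 6 per list, by their change with both proteins) or that define a marker list. Members and lists were chosen with earlier results of these data known. Of 50 keratin probes 38 were matched by accession to RefSeq GRCm38.p6; the others kept the file's name, and older names (Krt2-1, Krt2-17, Krt2-25) were read as Krt1, Krt2 and Krt87. The 4 keratin probes not counted were Krt79, Krt88 and Krt90, under other names in the files, and Krt86, written in lower case. The fits were tested on simulated data with 200 changed probes. Alternatives covered background correction, scaling, the deposited table, filters, the slide, the replicate block, other tests, other probes and left-out arrays. Plots used python 3.11.15, matplotlib 3.10.9, numpy 2.4.6 and pandas 2.3.3.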

Additional observations from a re-analysis of the deposited data

Results flagged for a closer look

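For 5 keratins the effect of Rspo2 differed between cells with and without Wnt3a, by the interaction in limma at an adjusted p under 0.05. On the log2 scale the interaction was 0.52 for Krt14 (adjusted p = 0.0439), -0.81 for Krt16 (adjusted p = 0.00553), -0.69 for Krt17 (adjusted p = 0.00991), 1.63 for Krt5 (adjusted p = 0.0075) and 4.75 for Krt76 (adjusted p = 0.000162). The Krt5 value rests on a probe above background on 1 of 3 Rspo2 arrays, and the Krt76 value on a probe below background in 3 groups, which entered the fit only through the group where it was high, so that its value is no measured size and supports nothing. The Krt14 interaction missed the threshold under 15 of 21 alternatives, among them 10 of the 12 that left out an array (adjusted p up to 0.103) and the replicate block (adjusted p = 0.0872). Adjusted for slide, the interactions of the 4 keratins other than Krt76 did not pass, with an adjusted p of 0.295 (Krt14), 0.14 (Krt16), 0.187 (Krt17) and 0.176 (Krt5). With 3 arrays per group no array was removed as an outlier from the main fits. BSA 1 and Rspo2+Wnt3a 1, with the most probes above background, were left out together in an alternative chosen after seeing the data.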

How the results depend on the processing

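With both proteins against BSA, 4 keratins were called. Normexp background correction called 2 (Krt13, Krt14), with 1.26 for Krt76 and -0.78 for Krt8. Slide as a term called 1 and dropping the 2-fold rule 8. Over all 22751 probes the calls went from 1155 to 330 under normexp, 500 with slide as a term and 8916 without the 2-fold rule. Under quantile scaling they were 1054. Quantile scaling called 4, with Krt7 (1.04) in place of Krt8 (-0.95). Leaving out any single array gave 4. With Rspo2 the count of 0 became 1 without the 2-fold rule, and was 0 to 1 over left-out arrays (Krt5, -1.01, without Rspo2 1). With Wnt3a the count of 0 became 1 under quantile scaling, 6 without the 2-fold rule, 1 without BSA 1 and Rspo2+Wnt3a 1 together (chosen after seeing the data), and 0 to 1 over left-out arrays (Krt7, without BSA 1). Between both proteins and Wnt3a the count of 1 became 0 under normexp, with only probes above background on all arrays, and with the adjusted methods' test, 2 with no filter (Krt33a added), and 6 without the 2-fold rule. The interaction count of 2 became 0 under normexp and with only probes above background on all arrays, 1 with slide as a term, and 5 without the 2-fold rule. Detected keratins were 23 rather than 11 with the scanner's positive-and-significant flag. The causes were not tested.

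Directions turned for Krt10 with both (-0.081, slide as a term), and under normexp for Krt5 with Rspo2 (0.30), the Krt5 interaction (-0.11) and Krt7 with both (-0.14). Normexp moved the median of all probes to 0.15 with Rspo2 and -0.16 in the interaction. Replicate numbers showed no sign of pairing the samples. Correlations were -0.41 to 0.27 (median 0.013) for same-numbered arrays and -0.399 to 0.425 (median -0.004) for other-numbered arrays. The replicate block gave 0, 0, 4, 1 and 2 calls in the 5 comparisons, as without it. However, 5 of the 26 keratin changes that passed at adjusted p alone missed the threshold under the block. These were Krt10 with both (adjusted p = 0.0576), the Krt14 interaction (0.0872), and Krt5 with Rspo2 (0.0547), with Wnt3a (0.0698) and between both and Wnt3a (0.0887). Of the same 26 changes, 22 missed the threshold with slide as a term, 22 under normexp, 10 with no filter on dim probes and 4 under quantile scaling. From 1 to 8 missed it when an array was left out (8 without BSA 3). The adjusted methods' test covered 21 of the changes, without the interactions, and 14 missed the threshold. Among these was the step of Krt16 from Wnt3a to both (adjusted p = 0.222). Changes in probes near background (Krt5, Krt7, Krt8, Krt76, Krt84) are limited by their signal.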
